A study of Homo sapiens with 6 samples.

Results

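The messages of 46 translation initiation and elongation factor genes were followed in NCI-H292 cells with a knockdown of the long noncoding RNA SH3PXD2A-AS1. NCI-H292 is an established human lung cancer line. The genes were taken by symbol from 60027 genes in the deposited table, and each symbol had 1 row. The family was chosen by gene name with the TPM values and fold changes of this same comparison already known, so counts of its members are a description and nothing is read from their share. There were 3 libraries from cells labelled as SH3PXD2A-AS1 knockdown and 3 from cells labelled as negative control, called vector control in the series text. All 6 came from the same line, and no other agent, time or dose is given. The knockdown reagent and the number of cultures behind each group are not given in the sources used here, and the spread that p-values rest on may therefore be technical.

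Translation initiation begins when eIF2, with GTP and the initiator tRNA, joins the small ribosomal subunit together with eIF1, eIF1A, eIF5 and the large scaffold eIF3. The cap-binding complex eIF4F, made of eIF4E, the scaffold eIF4G and the RNA helicase eIF4A, brings the messenger RNA, and poly(A)-binding protein joins its tail to eIF4G. After the subunits meet at the start codon, eEF1A delivers aminoacyl-tRNAs, the eEF1B complex reloads eEF1A with GTP, and eEF2 moves the ribosome along. Many of these factors, like the ribosomal proteins, are encoded by messages with a 5′ terminal oligopyrimidine (TOP) tract. Such messages begin with a C followed by a run of pyrimidines, and their use by ribosomes follows mTOR signalling.

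Levels are TPM, transcript abundance per gene length scaled to the same total in each library. TPM keeps no sequencing depth, so no counting interval can be given. SH3PXD2A-AS1 stood at 0.37, 0.68 and 0.44 TPM in knockdown libraries and at 0.96, 0.75 and 0.51 TPM in control libraries, and the groups overlapped (exact two-sided permutation p = 0.2, where 0.1 is the smallest p that 3 against 3 libraries allow). The target's level thus did not separate the libraries labelled knockdown from the controls. DHX9, the RNA helicase named in the series title, averaged 61.7 ± 2.67 TPM in knockdown and 61.0 ± 2.28 TPM in control libraries (SD, n = 3 each). The 6 epithelial markers looked up, among them EPCAM and KRT8, were present in every library at 61.0 TPM or more. All of them except KRT18, thus 5 of 6, were higher in every knockdown library than in every control library. KRT7 averaged 887 TPM in knockdown and 654 TPM in control libraries, and CDH1 averaged 86.0 TPM in knockdown and 64.0 TPM in control libraries. The part of this shift in the results was not tested. The leukocyte marker PTPRC was listed at 0 in all libraries. The other 8 markers, of fibroblasts, leukocytes and endothelium, stayed at or under 1.83 TPM, except COL1A1 at 22.0 to 25.9 TPM in knockdown and 19.6 to 21.95 TPM in control libraries.

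Most elongation factors, the poly(A)-binding proteins, eIF4B and part of eIF3 had lower message levels in knockdown cells. Genes were compared with limma on log2(TPM + 1), a scale that understates the change of low genes, and called at a Benjamini-Hochberg adjusted p under 0.05 over 15755 genes with a mean of at least 1 TPM. All 46 members passed that filter. Of these, 17 fell and 2 rose, against 3.47% of all genes tested that fell and 11.3% that rose. The log2 fold changes ran between −0.84 and 0.25, with a median of −0.10, while the median of all genes tested was 0.08. In 22 members every knockdown library lay under every control library, as in 9.66% of genes tested, and in 8 every knockdown library lay above, as in 26.8%. After median ratio scaling, which takes the small shared rise out of all genes, 21 members fell and none rose, against 6.32% and 6.42% of all genes (1 member was higher at an unadjusted limma p under 0.05). The 46 messages together made up 2.09% to 2.14% of TPM in knockdown and 2.55% to 2.66% in control libraries. Without EEF1A1, the most abundant, the other 45 made up 1.43% to 1.44% in knockdown and 1.66% to 1.72% in control libraries.

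**Figure D1:**
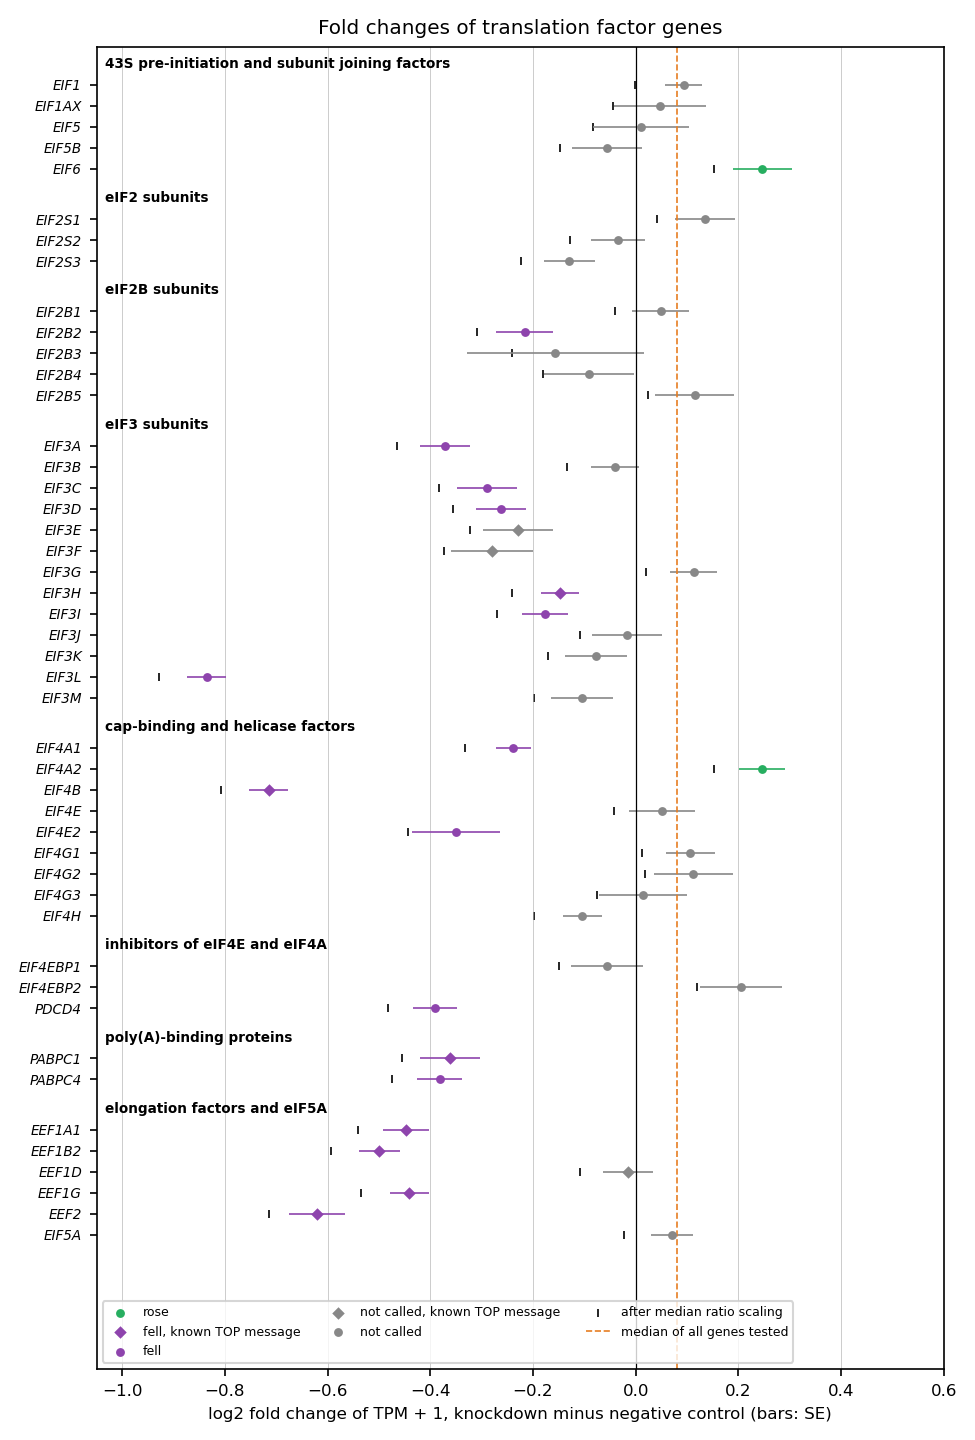
Log2 fold change of TPM + 1, knockdown minus negative control, for the 46 genes by role, with bars of 1 SE from limma. Purple marks genes that fell and green those that rose, diamonds mark genes with a known TOP message, short black bars give the value after median ratio scaling, and the dashed line is the median of all genes tested (0.08). EIF3L and EIF4B lie farthest to the left, followed by EEF2, while EEF1D and EIF5A lie near 0.

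The eEF genes fell together except EEF1D, and EIF5A was not called. EEF1A1, which carries aminoacyl-tRNAs to the ribosome and has the highest level of all members, stood at 6536, 6549 and 7094 TPM in knockdown libraries and at 9431, 8935 and 9145 TPM in control libraries. Every knockdown library lay well under every control library, with a mean of 73.3% of control (log2 fold change −0.45, SE 0.04, limma adjusted p = 0.00168). EEF1G, the gamma subunit of the eEF1B complex, stood at 2471, 2328 and 2480 TPM in knockdown and at 3353, 3239 and 3288 TPM in control libraries. EEF1B2, the subunit that exchanges the nucleotide on eEF1A, stood at 511, 504 and 518 TPM in knockdown and at 756, 710 and 705 TPM in control libraries. Neither gene's groups overlapped, and the log2 fold changes were −0.44 (SE 0.04, limma adjusted p = 0.000964) and −0.50 (SE 0.04, limma adjusted p = 0.000832).

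EEF2, the translocase, had the largest fall of the elongation factors. It stood at 1222, 1156 and 1079 TPM in knockdown and at 1808, 1694 and 1811 TPM in control libraries, a mean of 65.1% of control (log2 fold change −0.62, SE 0.05, limma adjusted p = 0.00106). EEF1D, another nucleotide exchange subunit of the eEF1B complex, did not follow. Its 657, 590 and 636 TPM in knockdown libraries overlapped the 640, 618 and 643 TPM of control libraries (log2 fold change −0.01, SE 0.05, limma adjusted p = 0.87). EIF5A, which helps ribosomes past stretches such as prolines, averaged 549 ± 16.7 TPM in knockdown and 523 ± 15.0 TPM in control libraries (SD, n = 3 each; limma adjusted p = 0.292). The 4 falls of EEF1A1, EEF1B2, EEF1G and EEF2 were called in all 16 alternative settings. Together the 5 eEF messages summed to 11398, 11127 and 11807 TPM in knockdown and to 15988, 15196 and 15593 TPM in control libraries.

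EEF1A1 has 39 annotated pseudogene copies, and reads could be split between them and the gene. The most abundant, EEF1A1P5, stood at 1043, 1281 and 1368 TPM in knockdown and at 2168, 1914 and 1833 TPM in control libraries. Its groups did not overlap either, and its mean was 62.4% of control, against 73.3% for EEF1A1. A tissue-restricted paralog, EEF1A2, stood at 4.30, 3.43 and 39.2 TPM in knockdown and at 3.44, 4.19 and 2.33 TPM in control libraries, so 1 knockdown library was far above the other 5. EEF1G shares 99.9% of its exon bases with the readthrough gene AP002990.1, which was listed at 1.89 to 2.23 TPM in knockdown and 2.26 to 2.33 TPM in control libraries.

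**Figure D2:**
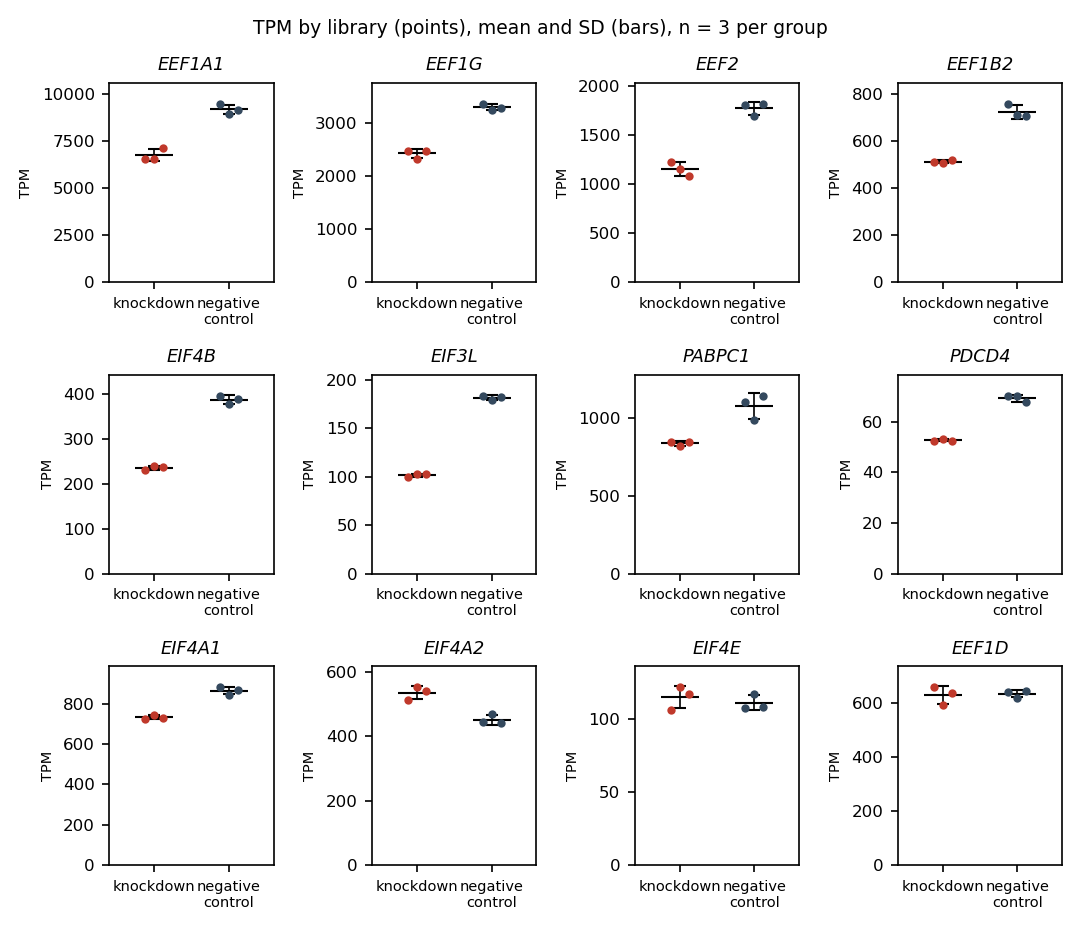
TPM in each library for 12 of the genes, knockdown on the left and negative control on the right of each panel, with the mean and SD of 3 libraries. The groups are apart in all panels except EIF4E and EEF1D, and EIF4A2 is the panel where knockdown lies above control.

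The 10 members listed as having a known TOP message had fold changes below 0. From general knowledge, 10 members have such a message: EEF1A1, EEF1B2, EEF1D, EEF1G, EEF2, EIF3E, EIF3F, EIF3H, EIF4B and PABPC1. This list was drawn up with earlier results of these data known, so its counts are a description and do not test a TOP pattern. All 10 had a fold change below 0, though that of EEF1D was only −0.01 (SE 0.05) with overlapping groups. Of the 10, 7 fell, against 3.47% of all genes tested. Their median log2 fold change was −0.40, and that of all genes tested was 0.08. Among the other 36 members 10 fell and 2 rose, against 3.47% and 11.3% of all genes tested, with a median of −0.05. The known TOP messages summed to 13535 to 14106 TPM in knockdown and 18086 to 19040 TPM in control libraries, and the other 36 to 7157 to 7410 TPM in knockdown and 7403 to 7586 TPM in control libraries. EIF3E and EIF3F, which did not pass the test, passed it after median ratio scaling (limma adjusted p = 0.0178 and 0.0356). There 9 of the 10 fell, against 6.32% of all genes tested.

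The start sequences show which of these genes begin with a C and pyrimidines. Each line gives 25 bases before and 15 bases from the annotated first base (RefSeq, GRCh38.p14), with the first 5 transcribed bases in capitals. The first 5 genes fell and the start of each except EEF1G has a C and then 4 pyrimidines. EIF3F was lower without passing the test, EIF3D fell without being on the TOP list, EIF4A2 rose, and EIF4A1 and PDCD4 fell.
EEF1A1: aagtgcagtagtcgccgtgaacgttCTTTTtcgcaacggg
EEF2: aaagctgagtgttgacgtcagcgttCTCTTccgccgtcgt
EEF1B2, downstream start: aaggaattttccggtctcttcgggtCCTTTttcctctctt
EIF4B: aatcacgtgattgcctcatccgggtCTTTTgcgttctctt
EEF1G: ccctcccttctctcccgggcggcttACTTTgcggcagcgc
EIF3F: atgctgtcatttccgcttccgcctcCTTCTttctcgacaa
EIF3D: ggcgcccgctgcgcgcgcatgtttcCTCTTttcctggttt
EIF4A2: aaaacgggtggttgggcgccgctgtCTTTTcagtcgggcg
EIF4A1: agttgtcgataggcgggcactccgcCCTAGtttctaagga
PDCD4: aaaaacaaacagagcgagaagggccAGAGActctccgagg

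These windows lie at chr6:73521018-73521057 (minus strand) for EEF1A1, chr19:3985449-3985488 (minus) for EEF2 and chr2:206159870-206159909 (plus) for EEF1B2. Those of EIF4B and EEF1G lie at chr12:53006431-53006470 (plus) and chr11:62573877-62573916 (minus). The windows of EIF3F and EIF3D lie at chr11:7987312-7987351 (plus) and chr22:36529152-36529191 (minus). EIF4A2 has its window at chr3:186783552-186783591 (plus), EIF4A1 at chr17:7572800-7572839 (plus) and PDCD4 at chr10:110871903-110871942 (plus).

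Start sequences were taken for 36 members. Chromosome 8 was left out of this step, and with it EEF1D, EIF3E, EIF3H, PABPC1 and EIF4EBP1. EIF2S2, EIF3A, EIF3G, EIF3L and PABPC4 had no promoter entry and are missing too, among them the falls of EIF3A, EIF3L and PABPC4. Thus 6 of the 10 known TOP members were covered, and 5 of them met the rule below. The promoters and tested genes counted for comparison were not limited in this way. The rule, chosen after the values were seen, asked for a C as the first base and C or T in each of the next 4, read on the sense strand at any annotated start. It was met by 10 members, of which 5 fell (EEF1A1, EEF1B2, EEF2, EIF3D and EIF4B), 1 rose (EIF4A2) and 4 were not called (EIF2S3, EIF3F, EIF3K and EIF3M), with a median log2 fold change of −0.27. Of the 26 members without it, 7 fell, 1 rose and 18 were not called, with a median of −0.0031. Such a start was present in 4.07% of 35116 promoters and in 7.34% of the 10148 tested genes that have one. Outside the family and the ribosomal protein genes, 7.85% of 688 tested genes with such a start fell and 9.59% rose, against 3.29% and 12.2% of 9358 genes without it. An annotated start can lie some bases from the one used in these cells, so a match or its absence describes these letters only.

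Of the 13 eIF3 subunits 6 fell, against 3.47% of all genes tested, and EIF3L fell more than any other member. EIF3L, a peripheral subunit, stood at 99.7, 102 and 102 TPM in knockdown and at 184, 179 and 182 TPM in control libraries. The libraries of each group lay close together and far from the other group, with a mean of 55.8% of control (log2 fold change −0.84, SE 0.04, limma adjusted p = 0.000189). EIF3A, the largest core subunit, stood at 58.4, 63.6 and 62.1 TPM in knockdown and at 79.0, 79.4 and 80.4 TPM in control libraries (log2 fold change −0.37, SE 0.05, limma adjusted p = 0.00455). Both calls held in all 16 alternative settings. EIF3L lies on chromosome 22 at 37848868 to 37889407 (GRCh38, plus strand), and its exons share 41.1% of their bases with AL022311.1 on the same strand, listed at 0.06 to 0.09 TPM in knockdown and 0.05 to 0.08 TPM in control libraries. They share 10.7% with ANKRD54 on the opposite strand, which was listed at 6.63 to 7.77 TPM in knockdown and 5.81 to 6.16 TPM in control libraries.

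The other falls in eIF3 were smaller. EIF3C, a core subunit, stood at 144, 128 and 136 TPM in knockdown and at 175, 163 and 161 TPM in control libraries (log2 fold change −0.29, SE 0.06, limma adjusted p = 0.0215). Its near copy EIF3CL averaged 81.7 ± 10.7 TPM in knockdown and 103 ± 7.91 TPM in control libraries (SD, n = 3 each), and reads of the pair may be split between them. EIF3D, a subunit that can bind the cap of some messages, stood at 96.3, 97.0 and 101 TPM in knockdown and at 124, 116 and 115 TPM in control libraries (log2 fold change −0.26, SE 0.05, limma adjusted p = 0.0154). Neither pair of groups overlapped.

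EIF3H stood at 316, 325 and 326 TPM in knockdown and at 361, 364 and 348 TPM in control libraries (log2 fold change −0.15, SE 0.04, limma adjusted p = 0.0412). EIF3I, a WD-repeat subunit, stood at 184, 189 and 187 TPM in knockdown and at 222, 204 and 209 TPM in control libraries (log2 fold change −0.18, SE 0.04, limma adjusted p = 0.0429). Both were lower in every knockdown library but close to the threshold. Their calls were lost when any 1 of the 6 libraries was left out, with adjusted p between 0.0747 and 0.127 for EIF3H and between 0.0654 and 0.107 for EIF3I. The call of EIF3D was lost without knockdown replicate 2 (limma adjusted p = 0.0584), and that of EIF3C without any 1 library other than knockdown replicate 1 (limma adjusted p up to 0.0673).

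Of the 7 eIF3 subunits that were not called, EIF3F came closest with EIF3E. EIF3F averaged 710 ± 78.9 TPM in knockdown and 858 ± 20.0 TPM in control libraries, and EIF3E averaged 271 ± 22.4 TPM in knockdown and 318 ± 13.7 TPM in control libraries (SD, n = 3 each; limma adjusted p = 0.0628 and 0.0685). In both, every knockdown library lay under every control library, and EIF3F passed the test without knockdown replicate 1 (limma adjusted p = 0.0443). EIF3M had no overlap either, at 490 to 567 TPM in knockdown and 568 to 592 TPM in control libraries. EIF3B, EIF3J and EIF3K overlapped, with log2 fold changes of −0.04, −0.02 and −0.08. EIF3G was the only subunit with a value above 0, at 211 to 229 TPM in knockdown and 198 to 209 TPM in control libraries (log2 fold change 0.11, limma adjusted p = 0.155). The 13 subunits thus had levels between 53.0 and 710 TPM in knockdown cells and between 53.6 and 858 TPM in control cells, and their log2 fold changes had a median of −0.18.

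**Figure D3:**
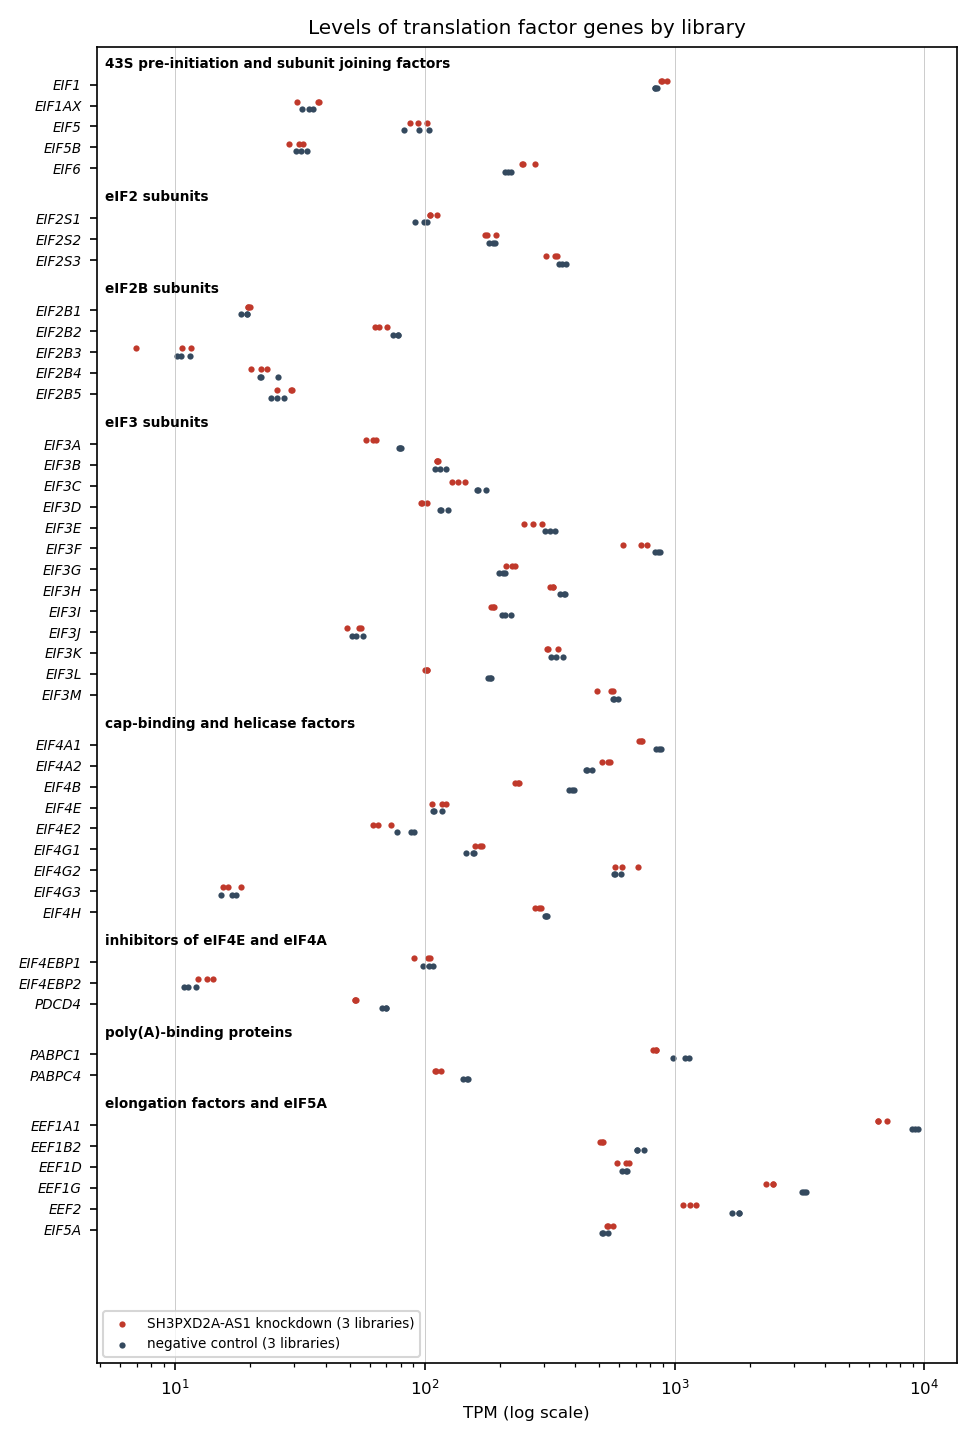
TPM of each gene in every library on a log scale, knockdown above negative control in each row, by role. Levels within a complex differ by more than the groups do: mean levels of eIF3 subunits span 53.0 to 710 TPM in knockdown and 53.6 to 858 TPM in control libraries, and EEF1A1 lies above all others at 6536 TPM or more.

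Around the cap, the helicase genes EIF4A1 and EIF4A2 moved in opposite directions while EIF4E and the scaffolds did not pass the test. EIF4B, which stimulates the helicase, stood at 231, 239 and 237 TPM in knockdown and at 396, 377 and 389 TPM in control libraries. That is 60.8% of control, with no overlap (log2 fold change −0.71, SE 0.04, limma adjusted p = 0.000214). EIF4A1, the main helicase of eIF4F, stood at 723, 743 and 730 TPM in knockdown and at 881, 844 and 868 TPM in control libraries (log2 fold change −0.24, SE 0.03, limma adjusted p = 0.00623). Both calls held in all 16 alternative settings.

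EIF4A2, a close paralog of EIF4A1, stood at 513, 553 and 541 TPM in knockdown and at 446, 468 and 440 TPM in control libraries. Every knockdown library was higher (log2 fold change 0.25, SE 0.04, limma adjusted p = 0.0145), but median ratio scaling ended the call (0.15 on the log2 scale, limma adjusted p = 0.0502). It was also lost without knockdown replicate 2, negative control replicate 1 or negative control replicate 3 (limma adjusted p = 0.0556, 0.0581 and 0.0639). A ratio within a library does not depend on scaling, and that of EIF4A2 to EIF4A1 was 0.732 ± 0.0191 in knockdown and 0.523 ± 0.0275 in control libraries (SD, n = 3 each). The ratio was 1.40-fold higher in knockdown, with no overlap (exact two-sided permutation p = 0.1, the smallest possible, and 0.25 adjusted over 10 ratios).

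EIF4E, which binds the cap, stood at 107, 122 and 117 TPM in knockdown and at 108, 117 and 109 TPM in control libraries, which overlap (log2 fold change 0.05, SE 0.06, limma adjusted p = 0.636). EIF4E2, a cap-binding relative that can repress translation, stood at 64.9, 73.5 and 62.0 TPM in knockdown and at 90.8, 77.5 and 87.8 TPM in control libraries. Its groups did not overlap (log2 fold change −0.35, SE 0.09, limma adjusted p = 0.0391), and the call was lost without knockdown replicate 1 or 3 or negative control replicate 1 or 3, with adjusted p between 0.101 and 0.122. The scaffold EIF4G1 stood at 169, 166 and 159 TPM in knockdown and at 157, 146 and 156 TPM in control libraries, higher in every knockdown library without passing the test (log2 fold change 0.11, SE 0.05, limma adjusted p = 0.187). EIF4G2, a relative that lacks the eIF4E-binding part, and EIF4G3 overlapped between groups, with log2 fold changes of 0.11 and 0.01. EIF4H, a small helicase cofactor, averaged 284 ± 7.63 TPM in knockdown and 305 ± 4.23 TPM in control libraries (SD, n = 3 each; limma adjusted p = 0.116, and 0.0341 after median ratio scaling).

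Of the genes for proteins that hold back eIF4F, PDCD4 fell. PDCD4, which binds eIF4A and blocks its helicase activity, stood at 52.3, 53.0 and 52.4 TPM in knockdown and at 70.2, 70.0 and 67.6 TPM in control libraries. Its libraries were tight in both groups and far apart between them (log2 fold change −0.39, SE 0.04, limma adjusted p = 0.00238), and the call held in all 16 alternative settings. Its exons share 28.1% of their bases with BBIP1 on the opposite strand, which was listed at up to 16.1 TPM in knockdown and up to 20.1 TPM in control libraries. EIF4EBP1, which competes with eIF4G for eIF4E when mTOR is inactive, stood at 103, 105 and 90.4 TPM in knockdown and at 108, 98.2 and 104 TPM in control libraries, with overlap (log2 fold change −0.06, SE 0.07, limma adjusted p = 0.633). EIF4EBP2, its relative, was low at 12.3 to 14.2 TPM in knockdown and 10.9 to 12.1 TPM in control libraries, higher in every knockdown library without passing the test (log2 fold change 0.21, SE 0.08, limma adjusted p = 0.136).

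Both poly(A)-binding protein genes fell by like amounts. PABPC1, the main cytoplasmic poly(A)-binding protein, stood at 845, 817 and 843 TPM in knockdown and at 1102, 982 and 1140 TPM in control libraries (log2 fold change −0.36, SE 0.06, limma adjusted p = 0.0102). PABPC4 stood at 109, 116 and 111 TPM in knockdown and at 149, 142 and 147 TPM in control libraries (log2 fold change −0.38, SE 0.04, limma adjusted p = 0.00264). Neither gene's groups overlapped, and both calls held in all 16 alternative settings. The ratio of PABPC4 to PABPC1 was 0.134 ± 0.00650 in knockdown and 0.136 ± 0.00801 in control libraries (SD, n = 3 each; exact permutation p = 0.7).

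The genes of eIF2 and its exchange factor moved little. EIF2S1, the alpha subunit that stress kinases phosphorylate, stood at 104, 112 and 104 TPM in knockdown and at 102, 99.5 and 91.2 TPM in control libraries, higher in every knockdown library but not past the test (log2 fold change 0.13, SE 0.06, limma adjusted p = 0.177). EIF2S3, the gamma subunit that binds GTP, stood at 307, 337 and 332 TPM in knockdown and at 355, 367 and 345 TPM in control libraries, lower without passing the test (log2 fold change −0.13, SE 0.05, limma adjusted p = 0.132) until median ratio scaling (limma adjusted p = 0.0212). EIF2S2 overlapped, at 174 to 193 TPM in knockdown and 180 to 192 TPM in control libraries. Of the 5 eIF2B subunits, which reload eIF2 with GTP, EIF2B2 fell. It stood at 70.3, 62.8 and 65.4 TPM in knockdown and at 78.3, 77.7 and 74.8 TPM in control libraries (log2 fold change −0.22, SE 0.06, limma adjusted p = 0.0452), a call lost without any 1 library other than knockdown replicate 1 (limma adjusted p between 0.0931 and 0.127). EIF2B1, EIF2B3, EIF2B4 and EIF2B5 were not called, with log2 fold changes of 0.05, −0.16, −0.09 and 0.12, though EIF2B1 was higher in every knockdown library. EIF2B3 had the lowest level of all members, and its 6.94 TPM in knockdown replicate 3 lay under the 10.1 to 11.5 TPM of the other 5 libraries.

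Among the factors that select the start codon and join the subunits, EIF6 rose. EIF6, which keeps the large ribosomal subunit from joining early and acts in its assembly, stood at 277, 245 and 246 TPM in knockdown and at 221, 209 and 216 TPM in control libraries (log2 fold change 0.25, SE 0.06, limma adjusted p = 0.0346). The groups did not overlap, but the call ended under median ratio scaling (0.15 on the log2 scale, limma adjusted p = 0.196) and without any 1 library other than knockdown replicate 1 (limma adjusted p between 0.0587 and 0.111). EIF1, the gatekeeper of start codon choice, stood at 888, 879 and 931 TPM in knockdown and at 853, 837 and 838 TPM in control libraries without passing the test (log2 fold change 0.09, SE 0.04, limma adjusted p = 0.138). EIF1AX, EIF5 and EIF5B overlapped between groups, with log2 fold changes of 0.05, 0.01 and −0.06. The fold changes of EIF1, EIF1AX, EIF5, EIF2B1, EIF4E, EIF4G3 and EIF5A changed sign in at least 1 of 4 other scalings.

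**Figure D4:**
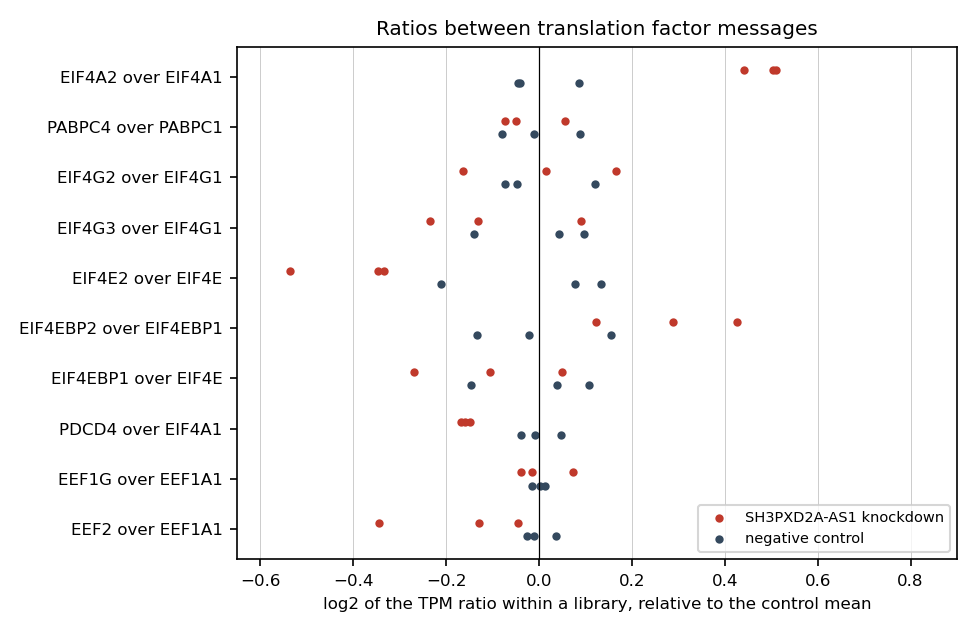
Log2 TPM ratio of 2 genes within each library, relative to the mean of the control libraries, for 10 pairs, with knockdown points above control points. The groups are apart for EIF4A2 over EIF4A1, EIF4E2 over EIF4E, PDCD4 over EIF4A1 and EEF2 over EEF1A1, and EEF1G over EEF1A1 lies near 0 in all libraries.

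Ratios of members within libraries were compared, and none passed the test. The groups did not overlap for 4 of 10 ratios (exact permutation p = 0.1 each, the smallest possible, and 0.25 adjusted over the 10). Besides EIF4A2 to EIF4A1, the ratio of EIF4E2 to EIF4E was 0.579 ± 0.0443 in knockdown and 0.770 ± 0.0955 in control libraries. That of PDCD4 to EIF4A1 was 0.0718 ± 0.000456 in knockdown and 0.0801 ± 0.00248 in control libraries, and that of EEF2 to EEF1A1 was 0.172 ± 0.0179 in knockdown and 0.193 ± 0.00441 in control libraries (SD, n = 3 each). The log2 difference in the ratio of EEF2 to EEF1A1 depended on single libraries in size. It was −0.17 with all libraries, −0.09 without knockdown replicate 3 and −0.24 without knockdown replicate 1. Knockdown replicates 1 and 2, at 0.187 and 0.176, still lay under the lowest control library at 0.190. EEF1G to EEF1A1 stood at 0.361 ± 0.0150 in knockdown and 0.359 ± 0.00351 in control libraries (exact permutation p = 0.9). The ratios of EIF4G2 and EIF4G3 to EIF4G1, of EIF4EBP2 to EIF4EBP1 and of EIF4EBP1 to EIF4E overlapped between groups (exact permutation p between 0.2 and 1).

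Related translation genes outside the family were set beside it. Of 70 such genes in 6 lists, 69 were tested, 7 (10.1%) rose and none fell by limma, against 11.3% and 3.47% of all genes tested. At an unadjusted limma p under 0.05, 15 were higher and 9 lower, and 4789 of all 15755 genes tested had such a p in either direction. Under median ratio scaling 3 (4.35%) rose and 10 (14.5%) fell, against 6.42% and 6.32% of all genes. RPS6KB1, the S6 kinase that phosphorylates eIF4B and PDCD4, rose to 24.9 ± 0.815 TPM in knockdown, against 17.5 ± 1.90 TPM in control libraries (SD, n = 3 each; log2 fold change 0.49, SE 0.08, limma adjusted p = 0.012). RPS6KB2, its relative, rose by 0.22 on the log2 scale (SE 0.05, limma adjusted p = 0.0342), the second of 19 regulators of eIF4F, eIF4B and eEF2 to rise. Of 8 genes for eIF2 kinases and phosphatase subunits, EIF2AK2 (PKR, which phosphorylates eIF2 alpha on sensing double-stranded RNA) and PPP1R15B (which directs its dephosphorylation) rose. EIF2AK2 averaged 46.1 ± 3.24 TPM in knockdown and 33.8 ± 2.75 TPM in control libraries, and PPP1R15B averaged 87.2 ± 5.76 TPM in knockdown and 68.3 ± 3.28 TPM in control libraries (SD, n = 3 each; limma adjusted p = 0.0156 and 0.0162).

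Of 16 other eIF, eEF and PABP genes, 15 were tested and EIF1B and PABPN1 rose, with log2 fold changes of 0.29 and 0.21 (SE 0.07 and 0.04, limma adjusted p = 0.0393 and 0.0242). DPH7, 1 of 8 genes for the deoxyhypusine and diphthamide modifications of eIF5A and eEF2, rose by 0.33 on the log2 scale (SE 0.06, limma adjusted p = 0.018). Median ratio scaling ended the calls of RPS6KB2, EIF1B, PABPN1 and DPH7, whose values became 0.12, 0.20, 0.12 and 0.24 on the log2 scale. Leaving out 1 library ended each of the 7 calls at least once. The call of RPS6KB1 ended without knockdown replicate 2 or negative control replicate 2 (limma adjusted p = 0.0501 and 0.0510), and that of PPP1R15B without negative control replicate 1 (limma adjusted p = 0.0539). That of EIF2AK2 ended without knockdown replicate 2 or 3 or negative control replicate 3 (limma adjusted p = 0.0576, 0.0507 and 0.0583), and that of DPH7 without any 1 control library (limma adjusted p between 0.0551 and 0.0682). Those of RPS6KB2 and EIF1B ended without any 1 of the 6 libraries (limma adjusted p up to 0.107 and 0.119), and that of PABPN1 without any but knockdown replicate 1 (limma adjusted p up to 0.0843). None of 9 termination, recycling and reinitiation factors or 10 mitochondrial translation factors was called, with medians of −0.06 and −0.12. Of them 1 and 2 were lower at an unadjusted limma p under 0.05, which 4789 of all 15755 genes tested had in either direction.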

How the data were processed

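RNA of 6 NCI-H292 libraries, 3 per group, was selected by poly(A), copied with random primers and sequenced as paired reads, per the labels' protocols. The authors deposited 1 table of TPM values with gene lengths and symbols. The tools listed, per the submitters' processing notes, are fastp, HISAT and RSEM without versions. The same notes name GRCm38.p5, a mouse build, but 58883 of 60027 IDs belong to human Ensembl genes, so the build used for the TPM values is unsettled. Gene positions came from GENCODE 29 on GRCh38, where all 46 members were found by ID, and start sequences from RefSeq on GRCh38.p14. Members on chromosome 8 and those without a promoter entry were left out of the start sequences. The sources used here do not say whether strand was kept in counting. In GENCODE, 30 members share exon bases with another gene, 25 of them on the opposite strand, and reads of such genes may be mixed. Columns were matched to samples by group and replicate number.

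Genes with a mean of at least 1 TPM were fitted with limma 3.58.1 (R 4.3.3) after taking log2(TPM + 1), without covariates and with a mean-dependent prior variance, knockdown minus control, two-sided. P-values were adjusted over all 15755 genes. Ratios of TPM were compared by exact permutation. The fit was first tested on simulated data. The members, role groups and lists were chosen with earlier results of these data known. Values in every library are given for each called member, for the highest member of a role group without a call, and for EIF4E, EIF4A1, EIF4G1, EIF2S1, EEF1A1, EEF2, PABPC1, EIF4EBP1 and PDCD4. Of the lists of related genes, up to 4 called genes are named. EEF1D, EIF1, EIF3E, EIF3F, EIF4EBP2 and EIF2B3, and the copies and overlapping genes, were named after their values were seen. In all, 16 alternative settings were tried.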

Additional observations from a re-analysis of the deposited data

How the results depend on the processing

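Of the 19 calls among the 46 genes, 11 held in all 16 alternatives: EIF3L, EIF4B, EEF1B2, EEF1G, EEF2, EEF1A1, PDCD4, PABPC4, EIF3A, EIF4A1 and PABPC1. None of the 19 changed sign under 4 other scalings. The count of falls was 17, and between 12 and 21 in the alternatives. The count of rises was 2. It was 1 without the filter, and 0 with median ratio scaling, with quantile normalization or with a prior without trend, and 0 when TPM was recomputed leaving out mitochondrial DNA and ribosomal protein genes. Leaving out 1 library gave 0 to 2 rises and 12 to 15 falls.

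Among related genes, 7 rose and 0 fell. Falls numbered 3 with a filter at a mean of 5 TPM, 2 with array weights, 1 when TPM was recomputed leaving out the members, 10 with median ratio scaling, 9 with quantile normalization, and 9 when mitochondrial DNA and ribosomal protein genes were left out. Rises numbered 3 with median ratio scaling, 3 with quantile normalization, 4 when mitochondrial DNA and ribosomal protein genes were left out, and 4 with a prior without trend. Leaving out 1 library gave 2 to 6 rises and 0 to 1 falls. The cause was not tested.

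With the replicate number as a block, 12 members fell and 2 rose, and 3 related genes rose and 0 fell. Same-numbered libraries did not deviate together (correlations between −0.012 and 0.0448), so no pairing by number was seen. With 3 libraries per group these values cannot exclude it. Across all genes 1780 rose and 547 fell. Median ratio scaling gave 1012 rises and 996 falls, and quantile normalization gave 1001 and 980. The counts were 1083 and 865 when mitochondrial DNA and ribosomal protein genes were left out, 1136 and 339 without the filter, and 1123 and 343 with the block. Leaving out 1 library gave 867 to 1267 rises and 246 to 366 falls. Depth is unknown, so the spread of 3 libraries is the only measure of precision.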
